A study of Mus musculus with 2 samples.

Results

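The sites described here are those of the RNA-binding protein LRPPRC on mt-Nd1, mt-Nd2 and mt-Nd3, mitochondrial mRNAs for core membrane subunits of respiratory complex I. A site was included when it lay on the plus strand of the mouse mitochondrial genome (mm10) and shared at least 1 base with the annotated body of one of these genes. This rule took 8 of the 552 sites in the deposited list, which held 48 mitochondrial sites, 39 of them on the plus strand. mt-Nd1 held 3 sites, mt-Nd2 held 3 and mt-Nd3 held 2.

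The sites came from PAR-CLIP of mouse embryonic fibroblasts (MEFs), connective-tissue cells grown from embryos of Lrpprc-FLAG transgenic mice. The series comprised 1 experimental and 1 control sample, and the labels give both the same treatment, 2 µg/ml doxycycline for 72 h. The study's methods give this dose and time for inducing LRPPRC-FLAG, after describing the MEFs and then human HeLa Tet-On cells with an LRPPRC-FLAG construct. They do not say whether the MEFs were meant. The labels do not state how the control differed, and its sites were not analysed here. All values below are from the 1 experimental library, so they have no replicates, and no test between conditions was possible.

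LRPPRC is a pentatricopeptide repeat protein that acts together with SLIRP in the mitochondrial matrix, where it is known for keeping mRNAs stable and polyadenylated. Mitochondrial mRNAs are cut out of long polycistronic precursors, in which tRNAs punctuate the coding sequence, and most have very short untranslated regions or none. Complex I is the entry point for electrons from NADH into the respiratory chain, and its mitochondrially encoded subunits form the core of the membrane arm that pumps protons. In PAR-CLIP, cells take up 4-thiouridine, ultraviolet light crosslinks it to the bound protein, and the crosslinked base is read as C in place of U. A site therefore needs a U that was crosslinked and read. The list gave the position, width and strand of each site, and its score column was 0 in every line, so the read depth behind any single site is unknown. Uncovered RNA may have gone unbound, or may have given too few reads, and these cases cannot be told apart here.

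Sequences are given first for mt-Nd1, because its sites leave both ends of the reading frame bare. They are from the RefSeq reference of the mm10 build, plus strand, 5′ to 3′, written as RNA. Capitals mark the start codon, the stop codon and copies of CACU. This word was picked from an earlier count over this same list, and in all 3 genes every copy lay in a site. A gap is a stretch of the gene between sites or between a site and the end of the gene.
mt-Nd1 gap 1 (chrM:2751-2765): GUGuucuuuauuaau
mt-Nd1 site 1 (chrM:2766-3013): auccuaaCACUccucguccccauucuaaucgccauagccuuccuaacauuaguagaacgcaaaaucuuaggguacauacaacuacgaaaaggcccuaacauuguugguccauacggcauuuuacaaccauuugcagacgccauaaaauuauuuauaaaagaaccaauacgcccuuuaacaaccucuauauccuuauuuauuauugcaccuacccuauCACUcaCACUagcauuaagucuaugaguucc
mt-Nd1 site 2 (chrM:3133-3190): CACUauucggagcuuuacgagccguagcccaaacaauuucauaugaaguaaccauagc
mt-Nd1 site 3, first 60 bases (chrM:3229-3288): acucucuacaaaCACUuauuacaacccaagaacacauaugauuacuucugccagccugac
mt-Nd1 site 3, last 60 bases (chrM:3604-3663): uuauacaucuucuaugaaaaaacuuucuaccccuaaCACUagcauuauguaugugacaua
mt-Nd1 gap 4 (chrM:3664-3707): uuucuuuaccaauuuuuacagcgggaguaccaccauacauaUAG
The first gap is rich in U, and site 2 opens on its copy of CACU.

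For mt-Nd2, the sequences show a site that begins in the upstream tRNA and runs over the start codon, a site with 2 copies of CACU, and the end of the widest site with the few bases left before the stop codon. In site 1 the first 32 bases belong to mt-Tm, the tRNA for methionine.
mt-Nd2 site 1 (chrM:3882-4064): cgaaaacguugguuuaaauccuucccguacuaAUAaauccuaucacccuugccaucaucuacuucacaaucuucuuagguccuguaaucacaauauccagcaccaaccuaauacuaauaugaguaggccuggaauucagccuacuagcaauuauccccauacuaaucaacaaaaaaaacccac
mt-Nd2 site 2 (chrM:4231-4371): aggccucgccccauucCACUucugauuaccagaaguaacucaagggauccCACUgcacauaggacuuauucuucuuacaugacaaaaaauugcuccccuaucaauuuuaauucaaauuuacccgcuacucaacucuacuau
mt-Nd2 site 3, last 60 bases (chrM:4880-4939): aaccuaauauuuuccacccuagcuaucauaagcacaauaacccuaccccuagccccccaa
mt-Nd2 gap 3 (chrM:4940-4951): cuaauuaccUAG
The last 60 bases of site 3 hold no copy of CACU, and the 12 bases after it are the end of the frame.

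For mt-Nd3, all pieces are given, with the end of the upstream tRNA mt-Tg, the tRNA for glycine, because site 1 starts at the first base of the reading frame.
mt-Tg last 20 bases (chrM:9439-9458): aauaaacccagaagagagua
mt-Nd3 site 1 (chrM:9459-9535): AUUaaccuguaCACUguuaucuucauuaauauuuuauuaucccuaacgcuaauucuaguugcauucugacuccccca
mt-Nd3 gap 1 (chrM:9536-9670): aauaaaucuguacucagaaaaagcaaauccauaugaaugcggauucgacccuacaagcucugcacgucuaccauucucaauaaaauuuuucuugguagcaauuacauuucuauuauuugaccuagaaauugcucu
mt-Nd3 site 2 (chrM:9671-9744): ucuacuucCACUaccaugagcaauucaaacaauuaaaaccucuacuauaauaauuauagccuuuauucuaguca
mt-Nd3 gap 2 (chrM:9745-9806): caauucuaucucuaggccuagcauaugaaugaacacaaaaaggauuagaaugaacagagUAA
The initiation codon AUU is the first triplet of site 1, and the stop codon UAA lies in the last gap.

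The map of sites along the reading frames shows how differently the 3 frames were filled. In mt-Nd1 (ENSMUSG00000064341.1, chrM:2751-3707, plus strand) the gene is 957 nt and 319 codons long, from a GUG start to a UAG stop, in a single exon. Site 1 was 248 nt wide and ran from nt 16 to nt 263 of the frame, that is from codon 6 to codon 88. Site 2, the narrowest of the 8, was 58 nt wide and ran from nt 383 to nt 440, codons 128 to 147. Site 3 was 435 nt wide and ran from nt 479 to nt 913, codons 160 to 305. The gaps of mt-Nd1 were 15, 119, 38 and 44 nt long from 5′ to 3′, so that a single gap of more than 50 nt interrupted the frame.

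**Figure D1:**
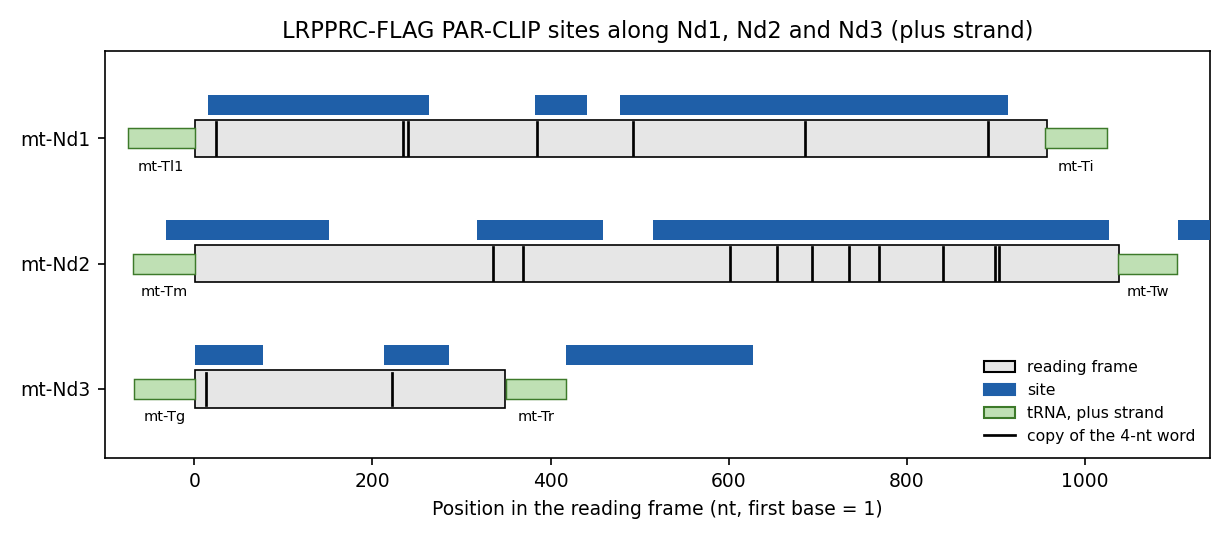
Positions of LRPPRC-FLAG PAR-CLIP sites (blue bars) along the reading frames of mt-Nd1, mt-Nd2 and mt-Nd3 (grey boxes), in nt from the first base of each frame, with flanking plus-strand tRNAs in green and copies of the word CACU as black lines. All 19 copies lie under a blue bar, the first sites of mt-Nd2, mt-Nd3 and mt-Nd1 begin -32, 0 and 15 nt from the first base, and the bars to the right of mt-Nd2 and mt-Nd3 are neighbouring sites outside these genes.

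mt-Nd2 (ENSMUSG00000064345.1, chrM:3914-4951, plus strand) is 1038 nt and 346 codons long, from AUA to UAG, also in 1 exon. Site 1 was 183 nt wide, of which 151 bases lay in the gene, and it ended in codon 51. Site 2 was 141 nt wide and ran from nt 318 to nt 458, codons 106 to 153. Site 3, at 511 nt the widest of the 8, ran from nt 516 to nt 1026, codons 172 to 342, and took up 49.2% of the gene. The gaps were 166, 57 and 12 nt long, so the bare stretches shortened towards the 3′ end.

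mt-Nd3 (ENSMUSG00000064360.1, chrM:9459-9806, plus strand) is the shortest of the 3, with 348 nt and 116 codons from AUU to UAA in 1 exon. Its sites were 77 nt wide (nt 1 to 77, codons 1 to 26) and 74 nt wide (nt 213 to 286, codons 71 to 96). The gap between them was 135 nt, and the gap after the last was 62 nt. In mt-Nd3 the gaps thus exceeded the sites, which was the reverse of mt-Nd1 and mt-Nd2. Widths over the 8 sites ran from 58 to 511 nt with a median of 162 nt, and site 3 of mt-Nd1 with site 3 of mt-Nd2 held 946 bases, 55.8% of all site bases in these genes. The 9 gaps ran from 12 to 166 nt.

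Sites covered 741 of the 957 bases of mt-Nd1, a share of 77.4% (95% Wilson interval 74.7 to 79.97%). In mt-Nd2 they covered 803 of 1038 bases, 77.4% (74.7 to 79.8%). In mt-Nd3 they covered 151 of 348 bases, 43.4% (38.3 to 48.6%). The intervals of mt-Nd1 and mt-Nd2 overlap almost entirely, and that of mt-Nd3 lies wholly below them. All intervals here cover counting error only and take each base as a separate observation although the bases of a site come as a block, so they are too narrow and stand in for no test.

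Together the 3 mRNAs had 1695 of 2343 bases in sites, 72.3% (70.5 to 74.1%). The other 7 plus-strand mRNAs, with Atp8/6 and Nd4l/4 each taken as 1 mRNA, had 24 sites and 5096 of 8490 bases, 60.02% (58.98 to 61.1%). Ordered by share, mt-Nd1 was the fourth of 10 and mt-Nd2 the fifth, next to mt-Co2 at 77.5%, and these 3 did not differ beyond their intervals. mt-Nd3 was the eighth, above mt-Co1 at 41.8% and mt-Nd5 at 38.3%, and its interval overlapped both. By number, mt-Nd3 had the highest density of sites of the 3, with 5.75 per kb against 3.13 in mt-Nd1 and 2.89 in mt-Nd2, and its low share went with narrow sites (median 75.5 nt against 248 and 183 nt).

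**Figure D2:**
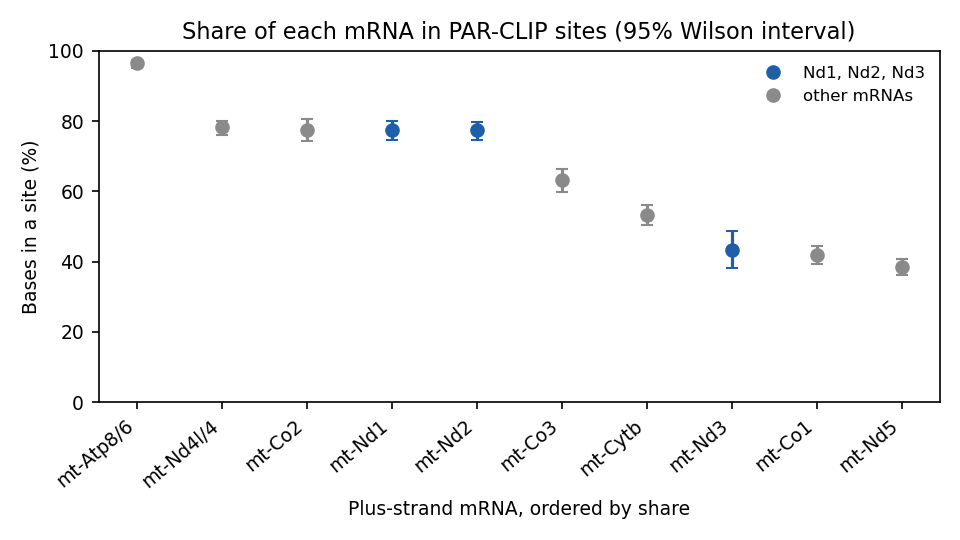
Share of bases in a PAR-CLIP site (%) for each of the 10 plus-strand mRNAs, ordered from high to low, with mt-Nd1, mt-Nd2 and mt-Nd3 in blue and the others in grey; bars are 95% Wilson intervals, from 1 library. mt-Nd1 and mt-Nd2 stand at 77.4% and mt-Nd3 at 43.4%.

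Coverage was also uneven within each frame. When mt-Nd2 was divided into equal parts of 346 bases, 52.0% of the 5′ part, 83.5% of the middle part and 96.5% of the 3′ part lay in sites. mt-Nd1, in parts of 319 bases, had 77.7%, 68.3% and 86.2%. mt-Nd3, in parts of 116 bases, had 66.4%, 17.2% and 46.6%. The 3′ part was the most covered in mt-Nd1 and mt-Nd2, whereas in mt-Nd3 the 5′ part was, and the middle part was the least covered in mt-Nd1 and mt-Nd3.

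The 5′ ends of the 3 genes abut tRNAs with no base between. The first site of mt-Nd1 began 15 nt after the first base of the frame and after the last base of mt-Tl1, a tRNA for leucine, so its start codon was outside every site. The first site of mt-Nd2 began 32 nt before the frame, within mt-Tm, and held all 3 bases of the start codon. The first site of mt-Nd3 began exactly at the frame's first base, directly after mt-Tg, and also held all 3 bases of its start codon. Starts in the list were read as 0-based, the convention of the format, and if they were 1-based this site would begin at position 9458, the last base of mt-Tg. All 3 start codons were within 50 nt of a site, and this held also within 25 nt. Sites touched 41 of 48 windows of 50 nt in these genes (85.4%), so most positions lay near a site. The count is thus not read as a trait of start codons, and the share of all codons this near to a site was not counted. Over the 10 plus-strand mRNAs, 2 had a site starting at the first base (mt-Nd3 and Atp8/6), and 4 had a first site starting no more than 15 nt from it on either side.

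At the 3′ ends the sites stopped short of the stop codon in each of the 3 genes. The last site ended 41 nt before the stop codon in mt-Nd1, 9 nt before it in mt-Nd2 and 59 nt before it in mt-Nd3. The distances to the downstream tRNA were 42 nt to mt-Ti (isoleucine), 10 nt to mt-Tw (tryptophan) and 63 nt to mt-Tr (arginine). The last 2 bases of mt-Nd1 and of mt-Nd2 are also annotated as the first 2 bases of mt-Ti and mt-Tw, whereas 1 base separates mt-Nd3 from mt-Tr. No base of these downstream tRNAs was in a site, and 32 bases of mt-Tm were the only upstream tRNA bases in one of these 8 sites. Over the 10 plus-strand mRNAs, the last site ended before the last base of the gene in 9, mt-Nd5 being the exception.

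The nearest sites outside these genes were on other RNAs of the same precursor. Before mt-Nd1 the nearest was 124 nt away in mt-Rnr2, the large rRNA, and before mt-Nd3 it was 123 nt away in mt-Co3. After mt-Nd3 a site began 69 nt past the gene, at the first base after mt-Tr, and reached into mt-Nd4l. After mt-Nd2 a site began 66 nt past the gene, beyond mt-Tw, on the strand opposite mt-Ta and mt-Tn. No minus-strand site lay within the 3 genes, and the nearest were 409, 1572 and 7117 nt from mt-Nd1, mt-Nd2 and mt-Nd3, so these genes gave the same values with strand ignored.

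The edges of the sites kept no single phase with the codons. Of the 8 first bases, 2 were at codon position 1, 3 at position 2 and 3 at position 3, where the first base of mt-Nd2 site 1 was counted by extending the frame back into mt-Tm. Of the 8 last bases, 3 were at position 1, 4 at position 2 and 1 at position 3. The width was a multiple of 3 in 3 of the 8 sites. The first base was U in 1 site, mt-Nd3 site 2, and the last base was U in 1, mt-Nd2 site 2.

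Since a crosslink requires U, the U content of sites and gaps was compared. U made up 486 of the 1695 site bases (28.7%, 26.6 to 30.9%) and 200 of the 648 gap bases (30.9%, 27.4 to 34.5%), so the intervals overlapped and the sites were not the richer. The direction differed among the genes. In mt-Nd1, U was 27.9% of site bases (24.8 to 31.3%) and 37.5% of gap bases (31.3 to 44.1%). In mt-Nd2 it was 27.8% against 26.0%, and in mt-Nd3 37.1% (29.8 to 45.0%) against 29.4% (23.5 to 36.2%). mt-Nd1 was the gene in which gaps held more U. Its site interval ended at 31.27% and its gap interval began at 31.32%. As these intervals are too narrow, that separation carries no weight.

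Among single pieces, the U share of sites ran from 24.1% in mt-Nd1 site 2 to 40.3% in mt-Nd3 site 1. That of gaps ran from 22.6% in mt-Nd3 gap 2 to 60% in mt-Nd1 gap 1, where 9 of 15 bases were U. The gap after mt-Nd1 site 3 held a run of 5 U. The most U-rich piece of the 3 genes was thus a gap. The longest stretch without U was 22 nt within a site (mt-Nd1 site 3) and 17 nt within a gap (mt-Nd2 gap 1).

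The other bases were compared in the same way. C made up 27.8% of site bases (25.7 to 30.0%) and 22.1% of gap bases (19.04 to 25.4%), and the direction was the same in mt-Nd1 (27.3% and 21.8%), mt-Nd2 (28.8% and 24.3%) and mt-Nd3 (25.2% and 19.8%). G made up 9.14% of site bases and 11.9% of gap bases, with less G in sites in mt-Nd2 (6.97% and 11.5%) and mt-Nd3 (6.62% and 14.2%) but not in mt-Nd1 (12.01% and 10.2%). A made up 34.4% and 35.2%. In the other 7 plus-strand mRNAs, C made up 26.6% of site bases and 25.04% of gap bases, and U 29.1% and 30.0%. There G made up 10.8% and 13.6% and A 33.5% and 31.4%, so less G in sites was not particular to the 3 mRNAs. The C shares of sites and gaps thus lay farther apart in the 3 mRNAs than in the others, and whether the differences differ was not tested.

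By codon position, U was concentrated at position 2 in sites and gaps alike. In sites U was 20.3% of bases at position 1, 45.0% at position 2 and 20.7% at position 3. In gaps the values were 28.8%, 41.2% and 22.6%. Codons with U at position 2 encode hydrophobic residues in the mitochondrial code, as is usual for membrane proteins. Of the U bases in sites, 254 of 486 (52.3%, 47.8 to 56.7%) were at position 2, against 89 of 200 in gaps (44.5%, 37.8 to 51.4%). These intervals overlap.

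The genes differed in this respect too. In mt-Nd3, U was 58.0% of position 2 in sites (44.2 to 70.6%) and 34.8% in gaps (24.5 to 46.9%). In mt-Nd1, U at position 1 was 23.9% in sites and 38.9% in gaps, and at position 2 it was 41.5% and 46.5%. In mt-Nd2, U at position 1 was 17.2% and 17.9%, and at position 2 45.7% and 41.8%. The mt-Nd3 intervals at position 2 overlap between 44.2 and 46.9%, as the plot of U by codon position shows.

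**Figure D3:**
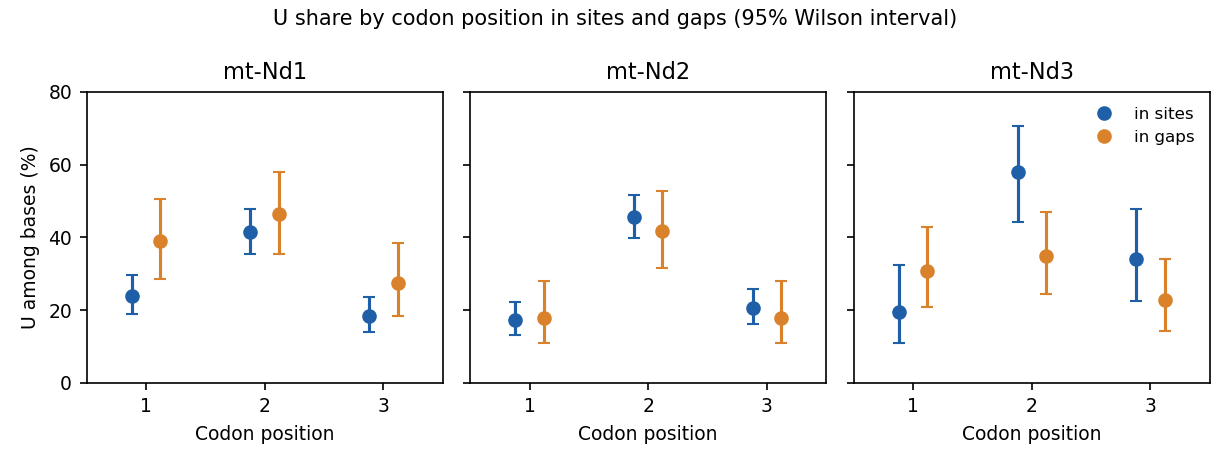
U share (%) of the bases at codon positions 1, 2 and 3 in sites (blue) and gaps (orange) of mt-Nd1, mt-Nd2 and mt-Nd3, with 95% Wilson intervals over bases of 1 library. Position 2 is the highest in sites of each gene (41.5%, 45.7% and 58.0%).

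Read as protein, the site bases of mt-Nd3 encode a more hydrophobic stretch than its gaps. The mean Kyte-Doolittle hydropathy, a scale on which higher values are more hydrophobic, was 1.78 over 49 residues in sites of mt-Nd3 and 0.232 over 63 residues in its gaps. In mt-Nd1 it was 0.658 in sites and 1.07 in gaps, and in mt-Nd2 0.777 and 0.847. The direction in mt-Nd3 was not shared by mt-Nd1 or mt-Nd2, and over the 3 together the means were 0.813 and 0.733.

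Of the 781 codons of the 3 genes, 559 (71.6%) lay wholly in sites, 210 in gaps and 12 across an edge. For the 29 codon kinds with at least 10 copies, the highest share in sites was that of ACC (threonine) with 12 of 13 copies, 92.3% (66.7 to 98.6%). CCC (proline) followed with 11 of 12, 91.7% (64.6 to 98.5%), and ACU (threonine) with 14 of 16, 87.5% (64.0 to 96.5%). The lowest shares were those of GGA (glycine) with 7 of 15, 46.7% (24.8 to 69.9%), and of AAU (asparagine) and UCU (serine) with 6 of 11 each, 54.5% (28.0 to 78.7%). The interval of each of these 6 codons but GGA includes the 71.6% of all codons, and that of GGA ends at 69.9%. Choosing the extremes of 29 kinds makes some of them far from the mean by selection.

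Grouped by residue, codons for phenylalanine, leucine, isoleucine, methionine and valine lay in sites in 253 of 343 cases, 73.8%. Codons for charged residues did so in 44 of 62, 71.0%, and those for small residues in 179 of 254, 70.5%. These shares were close to that of all codons. Among single residues, methionine had 49 of 61 copies in sites (80.3%), proline 38 of 48 (79.2%), serine 33 of 53 (62.3%) and glycine 18 of 30 (60%).

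The word CACU was examined because it had the highest ratio among 4-nt words in an earlier count over all mitochondrial sites of this same list, which includes the 8 sites here, so its share is a description and not independent evidence. All 19 copies of CACU in the 3 mRNAs lay wholly in sites, 7 in mt-Nd1, 10 in mt-Nd2 and 2 in mt-Nd3. In the other 7 plus-strand mRNAs 43 of 61 copies did, 70.5%. Over all 4-nt words of the 3 mRNAs 71.6% of copies lay in sites. Of 90 words with at least 10 copies, 2 had every copy in a site, CACU and UUCC, the latter with 12 copies, and the median word had 72.2%.

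CACU occurred in 7 of the 8 sites. mt-Nd1 sites 1, 2 and 3 held 3, 1 and 3 copies, mt-Nd2 sites 1, 2 and 3 held 0, 2 and 8, and each site of mt-Nd3 held 1. Most copies shared a frame, with 14 of 19 starting at codon position 2, 4 at position 3 and 1 at position 1. No copy lay in a gap of these genes, so the frame of copies could not be compared between their sites and gaps. The frame of copies in the other mRNAs was not counted, and whether codon usage alone gives this frame was not tested. The distance from a copy to the nearer edge of its site ran from 0 to 251 nt with a median of 50 nt, and 3 copies were within 10 nt of an edge. The copy at 0 nt is that of mt-Nd1 site 2, which begins with the C of CACU.

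Other words with high shares were CUAA with 23 of 24 copies in sites and the C-rich CCCC with 15 of 16, CCCA with 14 of 15 and GCCC with 10 of 11. At the other end stood UUUU with 5 of 14 (35.7%), UUAA with 7 of 16, UGAA with 5 of 11 and AUUU with 13 of 25 (52.0%). Words overlap one another, so CCCC, CCCA and GCCC share bases, as do UUUU and AUUU. The longest runs of U, 5 bases each, stand in mt-Nd1 gap 4 and in mt-Nd3 gap 1, as the sequences above show. CUAG, which had 10 of 19 copies in sites, and GCAA, with 7 of 13, were also low.

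The pairing of the RNA was predicted with RNAplfold, which gives each base the probability of being unpaired in a thermodynamic model, with no data from these cells. The whole plus strand was folded, with the tRNAs left in place. The mean was 0.681 over site bases and 0.628 over gap bases. It was higher in sites in each gene, with 0.634 and 0.594 in mt-Nd1, 0.733 and 0.694 in mt-Nd2, and 0.632 and 0.587 in mt-Nd3. The differences, 0.0402, 0.0386 and 0.0453, are small beside the range over single pieces. The pooled difference, 0.0527, was larger than each, because the genes make up unlike shares of site and gap bases. mt-Nd3, for instance, gave 197 of the 648 gap bases but 151 of the 1695 site bases. Among sites the mean ran from 0.520 in mt-Nd1 site 2 to 0.767 in mt-Nd2 site 3, and among gaps from 0.380 in mt-Nd1 gap 1 to 0.721 in mt-Nd2 gap 1.

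Restricted to U, the bases that can crosslink, the pooled means were 0.649 in sites and 0.618 in gaps, again with an unlike mix of genes. In mt-Nd3 the order was then the other way, with 0.582 in sites and 0.595 in gaps. In the 15 bases between mt-Tl1 and mt-Nd1 site 1, in which 9 are U, the predicted mean was the lowest of all 17 pieces. In this folding these bases could pair with mt-Tl1, so the value need not hold for an mRNA cut from its tRNA. The plot of unpaired probability along the frames shows low stretches in sites as well, such as most of mt-Nd1 site 2.

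**Figure D4:**
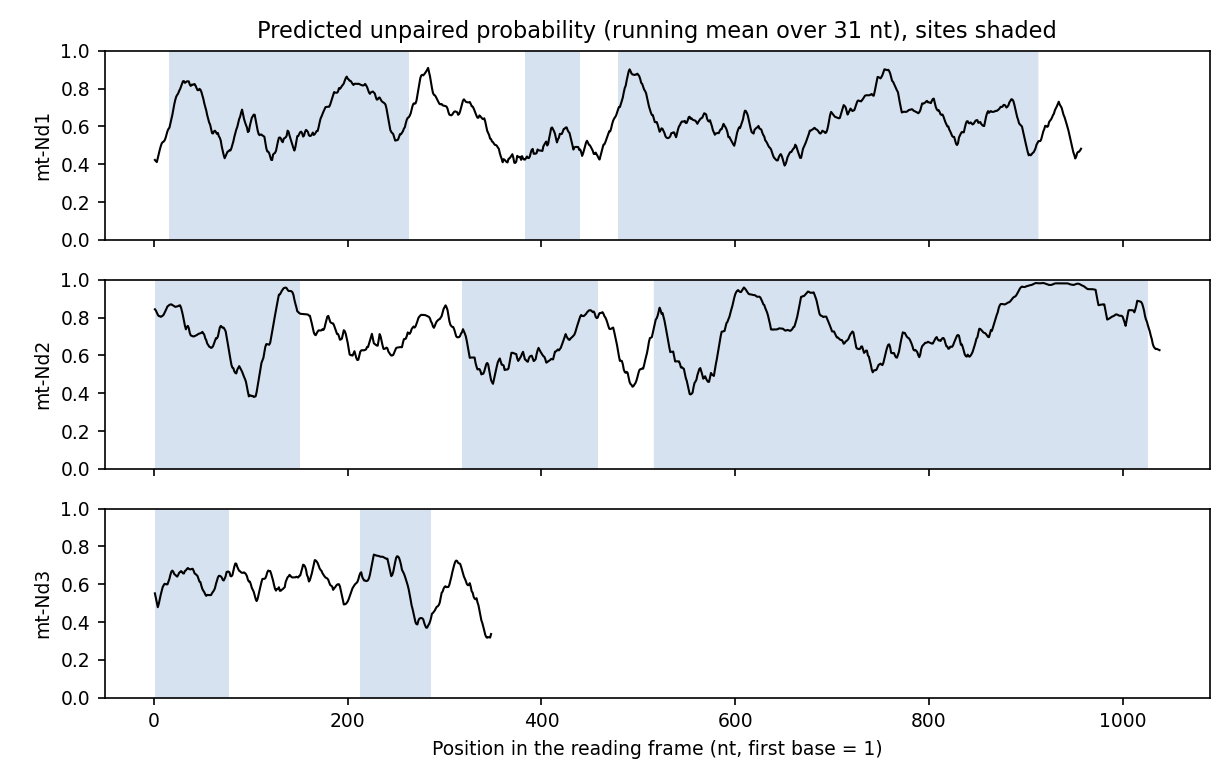
Predicted probability of being unpaired (running mean over 31 nt; 0 to 1) against position in the reading frame (nt) for mt-Nd1, mt-Nd2 and mt-Nd3, with site bases in the frame shaded. Site means run from 0.520 (mt-Nd1 site 2) to 0.767 (mt-Nd2 site 3), and shaded and unshaded stretches overlap in level.

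Copies of mitochondrial DNA in the nuclear genome bear on where reads are placed, and the 3 genes differ in them. mt-Nd1 had 1 match of at least 90% identity on the chromosomes, 54 nt long on chromosome 3, and no identical stretch over 19 nt. mt-Nd3 had a full-length copy on chromosome 1 (chr1:24612772-24613119, minus strand, GRCm38) with 1 mismatch in 348 nt and an identical stretch of 345 nt. No deposited site lay in that copy. mt-Nd2 had 4 matches of at least 90%, the longest on chromosome 2 (chr2:22590024-22590534, minus strand), with 96.7% identity over 511 nt that correspond to mitochondrial positions 4441 to 4951.

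The chromosome 2 copy held 1 deposited site of 65 nt, whose sequence equals mitochondrial positions 4820 to 4884, and all 65 of these bases are in mt-Nd2 site 3. The study aligned reads to a genome with nuclear copies of mitochondrial DNA masked and kept 1 placement per read, so reads shared with an unmasked copy could be placed at either. How many reads this concerned in mt-Nd2 site 3 was not tested, as the list holds no read counts. In mt-Nd3 the identical stretch runs from position 9462 to the last base, so the mismatched base falls in the start codon and the rest of both sites has the sequence of the chromosome 1 copy.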

How the data were processed

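LRPPRC-FLAG PAR-CLIP sites of 1 MEF library were analysed. According to the study's methods and the submitters' processing notes, the authors removed PCR duplicates by molecular identifiers, trimmed reads with cutadapt 1.10, aligned them with Bowtie 1.12 to mm10 with nuclear copies of mitochondrial DNA masked, and identified crosslinked regions with BMix, which fits a mixture model to T-to-C changes. Other values deposited by the authors are positions (start, end, strand), and the deposited score and name columns were 0 in every line. Sequence poor in U or thinly read can be missed by this procedure.

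Starts were converted to 1-based positions. Genes were from GENCODE vM21, which matched the RefSeq annotation for the 3 genes, and sequence from the mm10 reference, whose mitochondrial sequence is 16299 nt long. Shares carry 95% Wilson intervals. Codons were read with the vertebrate mitochondrial code, and the 3 codon kinds with the highest and the 3 with the lowest share in sites were named among those with at least 10 copies. A word or codon counted as in a site when it lay wholly inside. Unpaired probabilities came from RNAplfold 2.7.2 on the whole plus strand, tRNAs included (windows of 150 nt, pairs up to 100 nt apart). Nuclear copies came from blastn 2.17.0 (E-value 1e-05). Python 3.11.15, SciPy 1.17.1, Biopython 1.88 and matplotlib 3.10.9 were used. The counting was tested on simulated data, and 0 of 50 simulated site sets were counted wrongly. The members, lists and words were chosen with earlier results of these data known. Alternatives were other widths, edges, windows, distances and folding settings. Not every gap sequence is reported here.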

Additional observations from a re-analysis of the deposited data

How the results depend on the processing

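Of 36 alternative values, 21 stayed inside the main value's interval (for a count, within 1.5 times it) and 15 moved. These include the CACU alternatives given below, which were not planned. For the mean unpaired probability the interval was computed as if the mean were a share of bases, so staying or moving carries no weight there. A change of direction was not scored. Values with strand ignored stayed the same by construction, because no minus-strand site lay in these genes. Dropping sites narrower than 147.5 nt, the median of the mitochondrial sites, left 4 of the 8 sites. The covered share fell to 57.4% over the 3 mRNAs, 71.4% in mt-Nd1, 63.8% in mt-Nd2 and 0% in mt-Nd3, whose sites are both narrower. With 10 nt removed from each edge the shares were 65.9%, 71.2%, 72.5% and 31.9%, and in 50-nt windows, which count when any base is touched, 85.4%, 90%, 90.5% and 57.1%. mt-Nd3 was the lowest of the 3 under each of these. Because both its sites are narrow, the width cut and the edge trimming could not have changed that order. Stop codons with a site near them numbered 2 within 50 nt, 1 within 25 nt and 3 within 100 nt. The share of all codons that lay this near to a site was not counted. The mean unpaired probability of site bases was 0.751 with windows of 80 nt and pairs up to 40 nt apart, where gap bases had 0.6999, and sites were the higher also with each gene folded alone (0.688 and 0.638). The share of U in sites and of position 2 among U moved under no alternative run. For CACU, alternatives chosen after seeing the data gave 16 of 19 copies with trimmed edges and 14 of 19 in the wider sites. No paired analysis was possible because there was a single library. Depth per site is not in the list, which limits all statements on gaps.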
